A study of Mus musculus with 4 samples.

Results

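Gene deserts are long stretches of the genome without protein-coding genes, and 3076 regions of open chromatin inside them were shared by all 4 tumors of this series. A region was counted when the peaks of the 4 libraries overlapped by at least 1 bp into 1 merged region on an autosome with a peak from every library. Its midpoint had to lie more than 200 kb from every protein-coding transcription start of GENCODE M21, and it could not overlap the body of a protein-coding gene. These regions were 2.52% of all 122166 merged regions and 6.53% of the 47118 autosomal regions open in all 4 tumors. They were chosen by position and by the presence of a peak in each library, so that presence is a description here. A region that lost its peak in 1 tumor cannot be among them.

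ATAC-seq, in which a transposase cuts and tags accessible DNA, was run on brain tumors that formed from mG7080 cells in female, young adult C57BL/6 mice. mG7080 is a murine glioblastoma line grown as spheres from tumors of mice with engineered mutations that include p53 and Nf1, so both groups share the lesions of 1 cell line. The host mice were wild type (WT, n = 2 tumors) or lacked Esm1 (ESM1-KO, here KO, n = 2 tumors), the gene of the endothelial proteoglycan Endocan, while the tumor cells kept their own genotype. The labels call the material tumor tissue and the methods speak of freshly isolated tumor cells, and the deposited files do not settle which it was. The p-values below rest on only 2 tumors per group. The fit of peak heights pooled the spread between tumors over all regions, so its p-values do not measure that of a single region. All coordinates are on mm10 (GRCm38).

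The 4 lists held between 63000 and 100088 peaks, and the genome background recovered from them lay between 4.41 in WT 1 and 6.85 in WT 2. Here and below, read ends are counted as the peak caller extends them, at every position that the extension covers. Heights and backgrounds in read ends are thus coverage and not cuts at 1 base. The length of the extension is not given. WT 1 was the shallowest library. Of 8 glial precursor and glioma markers, among them Sox2 and Olig2, between 6 and 7 had a promoter peak in each library. Of 6 endothelial markers between 1 and 3 had one, of 6 microglial markers between 0 and 2, of 4 myelin markers between 1 and 3, of 4 astrocyte markers between 1 and 3, of 5 neuron markers between 3 and 4, and of 3 T cell markers 0. The part of host cells in the values below was not tested.

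Open chromatin far from genes is often regulatory. Enhancers can act on promoters over long distances by looping, and deserts around developmental regulators such as Sox9 are known to hold many of them. Transcription factors of the AP-1, E-box-binding and nuclear factor I families bind in such elements in many tissues, whereas CTCF marks loop anchors and domain borders.

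The DNA at the summits shows what such regions look like. The 5 windows below, each 101 bases centred on the summit of the tallest of the 4 peaks, are 1 of the 2 regions that tie as tallest, by the lowest of the 4 heights over genome background, among those whose summit DNA occurs once in the genome, and the tallest further such region whose window holds a CTCF match, an AP-1 match, the E-box CAGATG or a nuclear factor I core. Regions on 1 autosome were left out before this choice, so a taller window there would not be shown. All 5 windows are printed on the plus strand of mm10. Capitals mark the named motif on either strand and no other motif. In the first window they mark ACTACAATT read on the minus strand, the core of the ZNF143 motif, which was searched for after this sequence had been read.
Eipr1 to Myt1l, ZNF143 core, chr12:29291112-29291212: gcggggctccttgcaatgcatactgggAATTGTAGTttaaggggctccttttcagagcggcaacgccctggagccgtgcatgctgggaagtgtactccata
Vrk2 to Gm6685, CTCF, chr11:26961783-26961883: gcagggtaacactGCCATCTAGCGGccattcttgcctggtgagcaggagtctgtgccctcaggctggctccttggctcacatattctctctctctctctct
Tmem161b to Ccnh, AP-1, chr13:84613129-84613229: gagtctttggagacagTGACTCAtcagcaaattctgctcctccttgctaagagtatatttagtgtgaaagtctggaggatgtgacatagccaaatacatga
Nbea to Tm4sf1, E-box, chr3:56962779-56962879: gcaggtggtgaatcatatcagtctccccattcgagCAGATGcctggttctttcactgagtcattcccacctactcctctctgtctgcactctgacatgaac
Mindy3 to Pter, nuclear factor I core, chr2:12709293-12709393: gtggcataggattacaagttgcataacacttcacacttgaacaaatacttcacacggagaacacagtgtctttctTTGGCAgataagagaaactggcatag

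The gene names are the coding genes whose starts flank the region on either side. The window between Eipr1 and Myt1l, a neuronal zinc finger factor, had peak heights of 107 and 144 read ends in the WT and 124 and 152 in the KO tumors. The CTCF window reached 35, 62, 53 and 62 read ends in the order WT 1, WT 2, KO 1 and KO 2, which the rest of the text keeps. The AP-1 window reached 65, 116, 90 and 93. The E-box window, next to the neuronal gene Nbea, reached 66, 105, 80 and 88, and the nuclear factor I window 54, 81, 70 and 78. In each of the 5 windows the WT and KO heights overlapped and WT 1 was lowest. The ZNF143 core was rare, with 3 of the 3076 regions (0.0975%) against 0.180% of all autosomal regions open in all 4 tumors.

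Deserts in this sense covered 528 Mb, or 22.0% of the autosomes, but held 6.53% of the autosomal regions open in all 4 tumors. The density was 5.82 regions per Mb of desert, against 23.6 other shared regions per Mb elsewhere. Chromosome 13 was densest with 9.02 regions per Mb of desert, and chromosome 17 was sparsest with 3.86. The median distance to the nearest coding start was 357 kb. For 838 regions (27.2%) it was over 500 kb, and for 144 over 1000 kb.

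Heights had no common trend with distance within the deserts. Among the 1122 regions at 200 to 300 kb the median height, divided by the genome background of the library, was 5.44, 6.21, 5.81 and 5.36 in the 4 libraries. Among the 144 regions over 1000 kb away it was 4.98, 6.50, 6.14 and 5.51. Just inside the threshold, at 200011 bp, lay a region on chromosome 3 between Gm5148 and Ankrd50 with heights of 26, 30, 30 and 28 read ends. The others nearest to it were at 200069 bp (Clnk to Hs3st1, 23, 42, 31 and 29) and at 200119 bp (Tle3 to Rplp1, 23, 54, 38 and 45). Just outside were regions at 199956 bp before Rab10 on chromosome 12 (204, 220, 219 and 238), at 199858 bp between Cadps and Synpr (27, 63, 50 and 52) and at 199844 bp between Grik3 and Csf3r (28, 65, 50 and 47).

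The regions farthest from genes lay between adhesion genes or beside Celf4. The farthest, 2597 kb from a coding start, was on chromosome 14 from 91288797 to 91289370 between the protocadherin genes Pcdh20 and Pcdh9, with heights of 17, 23, 32 and 23 read ends. On chromosome 1, between Cntnap5b and the cadherin gene Cdh20, a region 2256 kb from a start had heights of 19, 58, 39 and 52, and one at 2140 kb had 69, 76, 74 and 66. Another pair lay between Celf4, a neuronal RNA-binding protein, and the phosphoinositide kinase gene Pik3c3 on chromosome 18, at 2217 kb (20, 42, 37 and 37) and at 2195 kb (48, 57, 45 and 43). The WT and KO heights overlapped or touched in 4 of these 5, and at 2195 kb both KO tumors were below both WT tumors.

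Gene desert regions had median heights near those of other distal regions and well below those of promoters. Their median height was 23, 43, 36 and 36 read ends, which is 5.21, 6.28, 5.97 and 5.36 times the genome background. Intergenic regions within 200 kb of a start had medians of 5.89, 6.43, 5.97 and 5.81 times, gene body regions 5.89, 6.57, 5.97 and 5.51 times, and promoters 14.0, 12.1, 11.8 and 12.2 times. The median width of desert regions was 783 bp, against 778 bp for the nearer intergenic regions and 1249 bp for promoters. Across the 4 libraries the centred log2 heights of a desert region had a median SD of 0.22. It was 0.21 for the nearer intergenic regions, 0.21 for gene body regions and 0.20 for promoters.

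**Figure D1:**
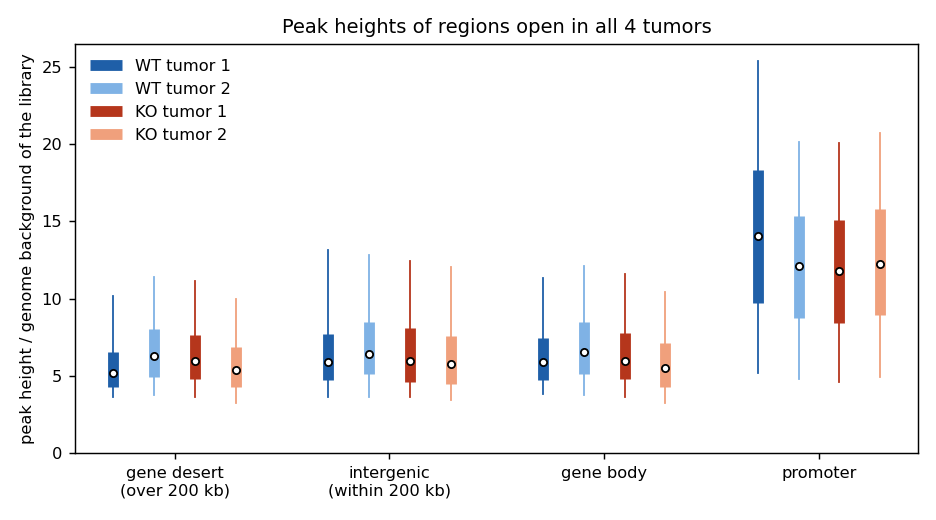
Peak height over genome background (no unit) of the regions open in all 4 tumors, by position and by tumor. Circles are medians, thick bars span the quartiles and thin lines the range from the 5th to the 95th percentile. Gene desert medians, 5.21 to 6.28, sit beside those of the other distal classes and below those of promoters, 11.8 to 14.0.

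The share of regions common to all tumors was lower in deserts than in the other classes. Of 11254 desert regions with a peak in any library, 3076 (27.3%) had one in all 4, 2412 in 3, 2043 in 2 and 3723 in 1. The share with all 4 was 35.4% among the nearer intergenic regions, 32.2% in gene bodies and 81.9% at promoters. The missing peak was most often that of the shallowest library: 2041 desert regions lacked a peak in WT 1 alone, against 42, 91 and 238 for the 3 others. Without WT 1, 5118 desert regions were open in the remaining 3 tumors.

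Desert peaks made up 6.65% of the WT 1 list and 9.002% of the WT 2 list, and 8.86% and 8.40% of the KO lists. The KO mean of 8.63% was 0.807 percentage points above the WT mean of 7.82%. Both WT values lay outside the KO range, 1 below and 1 above, and an exact permutation test over the 4 libraries gave p = 1 (two-sided, smallest possible p 0.33). When every list was cut to the length of the shortest, the difference was 0.852 points, with an exact permutation p of 0.667.

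The regions were gathered in a limited set of deserts. They lay in 667 intervals between neighbouring coding genes, with a median of 3 per interval, and 88 intervals with 10 or more held 1185 regions (38.5%). Of 763 intervals longer than 400 kb, 587 held at least 1 region and 176 held none. Neighbouring regions within an interval were a median of 47.6 kb apart, and 16.4% of the 2409 neighbouring pairs were less than 10 kb apart.

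The interval with the most regions, 27, was that of 4.52 Mb between Celf4 and Pik3c3 on chromosome 18. The 1.71 Mb between Agtr1b, an angiotensin receptor gene, and Tbl1xr1, a subunit gene of the nuclear receptor corepressor complex, held 25. There were 22 regions in the 0.962 Mb between Rps24, a ribosomal protein gene, and Zmiz1, a transcriptional coregulator. Another 22 lay in the 1.42 Mb between Arpp21 and Pdcd6ip, and 21 in the 0.981 Mb between the kinesin gene Kif2a and Ndufaf2. The interval between Kcnt2 and Cdc73 also held 21, spread over 2.99 Mb. Length alone did not order these intervals, since the density ranged from 5.98 to 22.9 regions per Mb among the 6.

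**Figure D2:**
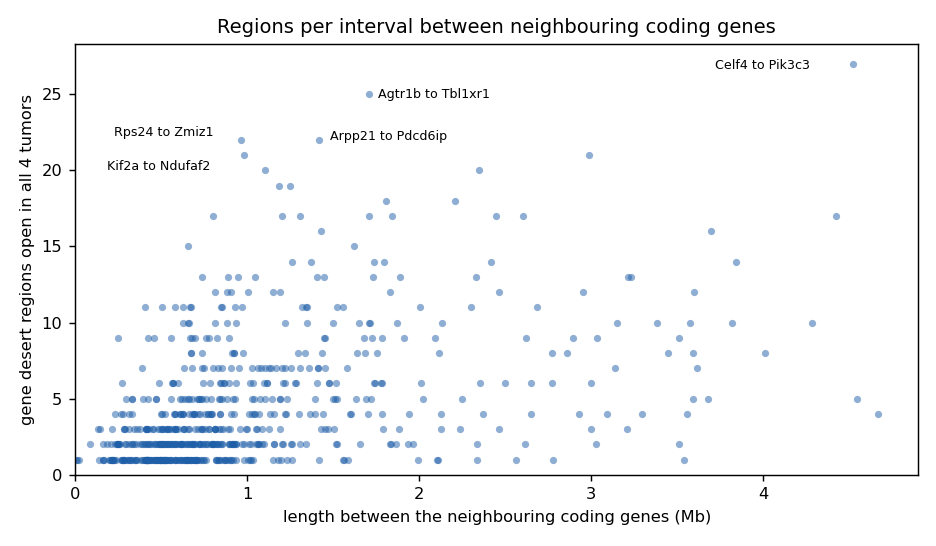
Number of gene desert regions open in all 4 tumors (y axis) against the length in Mb of the interval between the neighbouring coding genes (x axis), with 1 point for each of the 667 intervals that hold a region. The 5 named intervals hold between 21 and 27 regions over lengths from 0.962 to 4.52 Mb.

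Neural transcription factor genes and adhesion and axon guidance genes often flanked these deserts. Of 116 genes in a list of neural and glial transcription factors, 52 had the nearest coding start on 1 side of at least 1 region, and 296 regions (9.62%) had such a neighbour. Among all 15827 autosomal intergenic regions open in all 4 tumors the share was 4.57%. Sox9, a glial fate regulator, flanked 19 regions and was the nearest gene for 13 of them. Pou3f3, a POU factor of neural progenitors, flanked 17 and was nearest for 12. The zinc finger genes Bcl11a and Zeb2 flanked 16 each and were nearest for 7 and 8. Lmo4 flanked 17 (nearest for 6), Sox11 flanked 13 (nearest for 4) and Nr2f1 flanked 11 (nearest for 8). Of 88 adhesion and guidance genes 63 flanked a region, and 453 regions (14.7%) had one as a neighbour, against 4.93% of all intergenic shared regions. In this list Flrt2 flanked 28 regions, Pcdh17 25, Cdh11 24 and the ephrin receptor gene Epha4 21. They were the nearest gene for 7, 4, 13 and 12 of these.

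Lists of cell type genes were shorter, with 12 to 37 genes, and flanked fewer regions. The lists overlap. Sox9 with its 19 regions is also in the astrocyte list and in the precursor and glioma list. Myc, which flanked 11 regions, is in the latter and in the transcription factor list. Oligodendrocyte precursor and glioma genes flanked 1.69% of the desert regions (1.11% of all intergenic shared regions), endothelial genes 0.715% (0.480%), microglia and macrophage genes 0.293% (0.227%), astrocyte genes 0.845% (0.348%), neuron genes 0.943% (0.594%) and myelin genes 0% (0.139%). The 22 regions beside endothelial genes were those next to Cdh5 and Emcn. Developmental and adhesion genes tend to have long intergenic flanks, so these shares describe the neighbourhood and were not tested.

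The tallest regions, ranked by the lowest of the 4 heights over genome background, were a mixture. The tallest lay on chromosome 12 from 97061311 to 97061952 between Flrt2, a guidance and adhesion receptor, and Galc, a lysosomal enzyme, 1182 kb from a start, with heights of 139, 168, 140 and 225. Each of the 32-base words tested at its summit occurred at least 2 times in the genome. A region on chromosome 8 from 20121745 to 20123092, overlapping the non-coding gene Gm21769, had heights of 151, 154, 154 and 190. One on chromosome 1 from 7397086 to 7398694 overlapped the non-coding gene Gm26901 between Pcmtd1 and Sntg1 (142, 159, 124 and 164). The region between Eipr1 and Myt1l, shown above, tied with it in its lowest value over genome background.

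The fifth, on chromosome 8 from 15519687 to 15520366 between Myom2 and Csmd1, had heights of 100, 138, 135 and 134, and the words at its summit occurred at least 11 times. The others were at Rps24 to Zmiz1 on chromosome 14, overlapping 4930428N03Rik (92, 112, 97 and 125), at Il7 to Stmn2 on chromosome 3 (91, 120, 92 and 132) and at Nr5a2 to Ptprc on chromosome 1 over Gm4258 (81, 118, 91 and 100). The 6 regions of the 8 with a word that occurs once had a local background of between 1.88 and 4.59 times the genome background, in every library. In all 8 the WT and KO heights overlapped or touched, and the adjusted p of limma was 1.00.

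Most of the regions had no annotated gene at all, since 2500 (81.3%) overlapped no non-coding gene either. Of the rest, 441 overlapped a lincRNA gene, 66 a processed transcript, 22 an immunoglobulin or T cell receptor segment and 16 a miRNA gene. The 139 regions that held a non-coding transcription start were taller and wider than the others: their median heights were 6.34, 6.72, 6.31 and 6.11 times the genome background and their median width 1027 bp, against 5.21, 6.13, 5.97 and 5.36 times and 773 bp for those without any gene. Of these 139, 12.2% had 10 or more CpG within 100 bp of the summit, against 1.36% of the regions without a gene.

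Among non-coding genes with given names, Snhg14, the long host transcript of small nucleolar RNAs in the imprinted Snrpn region, held 10 regions, with heights between 29 and 78 read ends in WT 1 and between 29 and 84 in KO 2. All 32-base words tested were repeated in the genome for 9 of the 10, so the reads of these copies cannot be told apart. Lncenc1 held 7 regions on chromosome 13 between 97441575 and 97493707, with heights of 16 to 39, 33 to 59, 26 to 49 and 26 to 56. Mir99ahg, the host gene of a miRNA cluster, held 5, the tallest with heights of 56, 81, 76 and 83. No summit word of the Lncenc1 and Mir99ahg regions occurred elsewhere in the genome. Lncpint, Zswim6 (as a non-coding model) and Pvt1 held 2 each. Celrr, Redrum, Epb41l4aos and the pseudogene Dcdc5 held 1 each, and the Epb41l4aos region reached 62, 79, 61 and 74.

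The immunoglobulin kappa V segments named in the annotation overlapped 11 of these regions, with heights of 18 to 43, 33 to 89, 36 to 72 and 26 to 63 read ends, and those of the T cell receptors overlapped 10, with heights of 18 to 47, 30 to 62, 18 to 46 and 17 to 55. All words tested were repeated in the genome for 6 of these 10 and for 1 of the 11 kappa regions, so the reads of those copies cannot be told apart. GENCODE gives such segments their own gene type, so they did not count as protein-coding genes here. No T cell marker had a promoter peak in any of the 4 libraries.

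A further set lay over miRNA genes. RefSeq places 14 miRNA hairpins in 13 of the regions, and 9 of these belong to the Mir344 cluster between Snrpn and Ndn on chromosome 7, an imprinted domain known for neuronal expression. The 13 Mir344 hairpins of RefSeq span 402 kb, in which 11 desert regions lay. Mature sequences of the cluster, without miR-344c-3p, miR-344g-3p and miR-344d-3-5p, are shown because the open regions sit on the hairpins themselves. Each of those shown is printed with its seed, bases 2 to 8, in capitals, as RefSeq gives it on GRCm38.p6.
mmu-miR-344-5p: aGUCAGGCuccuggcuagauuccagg
mmu-miR-344b-5p: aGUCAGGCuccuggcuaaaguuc
mmu-miR-344c-5p: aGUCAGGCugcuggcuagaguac
mmu-miR-344g-5p: aGUCAGGCuccuggcaggagu
mmu-miR-344d-1-5p: aGUCAGGCugcuggcuauacacca
mmu-miR-344d-2-5p: aGUCUGGUugcuggcuauauucca
mmu-miR-344i: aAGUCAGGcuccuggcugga
mmu-miR-344-3p: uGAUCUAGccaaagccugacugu
mmu-miR-344b-3p: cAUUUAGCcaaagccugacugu
mmu-miR-344d-3p: gAUAUAACcacugccagacuga

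The first 5 of these share 1 seed, which 7 of the 9 hairpins carry, while Mir344d-2 and Mir344i carry other seeds at this place. The region over Mir344 (chromosome 7, 61877436 to 61878352) had heights of 50, 70, 59 and 74 read ends. Mir344-2 had 37, 58, 54 and 67, Mir344g 41, 56, 55 and 67, and Mir344c 27, 73, 60 and 76. At the low end were Mir344d-1 with 21, 44, 22 and 27, Mir344d-2 with 22, 27, 22 and 41 and Mir344i with 20, 30, 28 and 46. In each of the 9 regions at least 1 of the summit words occurred once in the genome. WT 1 was lowest, or tied for lowest, over each of these 7 hairpins.

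The other miRNA regions were single. Mir181a-1 and Mir181b-1, whose products act in lymphoid and neural cells, share 1 region with heights of 26, 31, 27 and 34. Mir802 lay in a region with 25, 40, 31 and 30, Mir6343 in one with 34, 57, 55 and 36, and Mir1952 in one with 45, 92, 79 and 68.

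The summit DNA was poorer in G and C than that of other open regions but richer than its surroundings. The median GC content within 100 bp of the summit was 44.8%, against 40.8% in windows of the same length 2 kb to either side, 49.8% at nearer intergenic regions and 66.7% at promoters. Only 59 regions (1.92%) had 10 or more CpG in this window, against 80.7% of promoters. These 59 had median heights of 8.61, 7.74, 6.80 and 7.90 times the genome background, above the 5.21, 6.28, 5.97 and 5.36 of the rest. Repeats and low-complexity DNA, as soft-masked in the reference, made up 11.3% of the windows on average and 27.7% of those 2 kb away. In 66 regions (2.15%) all 3 32-base words at and 50 bp beside the summit occurred elsewhere in the genome.

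Short motifs were counted on both strands within 100 bp of the summit. A match is a description and not a binding site. The motifs were AP-1 (TGANTCA), CRE (TGACGTCA), E-boxes of 5 forms (A is CAGATG, form B is CAGCTG, form C is CATATG, form D is CAGGTG and form E is CACGTG), SOX (AACAAT), octamer (ATGCAAAT), homeobox (TAATTA), the nuclear factor I core (TTGGCA), TEAD (GGAATG), forkhead (TGTTTAC), RUNX (TGTGGTT), ETS (CCGGAA), SP/KLF (GGGCGG), the site of GATA factors (spelled AGATAAG) and STAT (TTCCNGGAA), and, by name, IRF, CTCF, MEF2, RFX and the full palindrome of nuclear factor I. The core can lie within the full palindrome, which had 1 match in all. Of the 23 motifs, 17 were more frequent at desert summits than 2 kb away and 10 of them by more than 2 times, the single match of the full palindrome included. The other 6 were SOX, homeobox, CAGGTG, RUNX, GATA and forkhead.

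AP-1, bound by Fos and Jun dimers, was matched in 14.8% of the desert windows, against 6.66% 2 kb away and 10.5% of all autosomal regions open in all 4 tumors. The E-box CAGATG, a form bound by proneural factors, was matched in 27.0% (14.5% and 20.01%), and CAGCTG in 15.96% (6.84% and 16.01%). CATATG was matched in 9.53% (6.92% and 4.66%). The nuclear factor I core was matched in 19.96% (9.67% and 13.8%), and MEF2, a neuronal and muscle factor, in 5.14% (2.11% and 2.86%). Against the nearer intergenic regions these shares were 14.8% and 12.98% for AP-1, 27.0% and 23.3% for CAGATG, 9.53% and 5.51% for CATATG and 19.96% and 15.9% for the nuclear factor I core. CAGCTG was lower in deserts, with 15.96% against 17.1%. In gene body regions the shares were 13.4% for AP-1, 25.8% for CAGATG, 18.0% for CAGCTG, 6.06% for CATATG and 16.4% for the core. Promoters, which are part of all autosomal regions, had 2.94% for AP-1 and 7.11% for CAGATG.

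SOX and homeobox were less frequent at the summits than beside them, and SP/KLF and ETS were more frequent there. SOX was matched in 8.91% of the desert windows and 15.4% of those 2 kb away, and homeobox in 4.78% and 8.55%. Both motifs are rich in A and T, and the GC content of the windows differed as given above; its part in these shares was not tested. SP/KLF, a motif of GC-rich promoters, was matched in 4.13% of desert windows, 0.845% of those 2 kb away and 56.8% of promoters. ETS was matched in 2.28%, 1.01% and 18.9%.

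**Figure D3:**
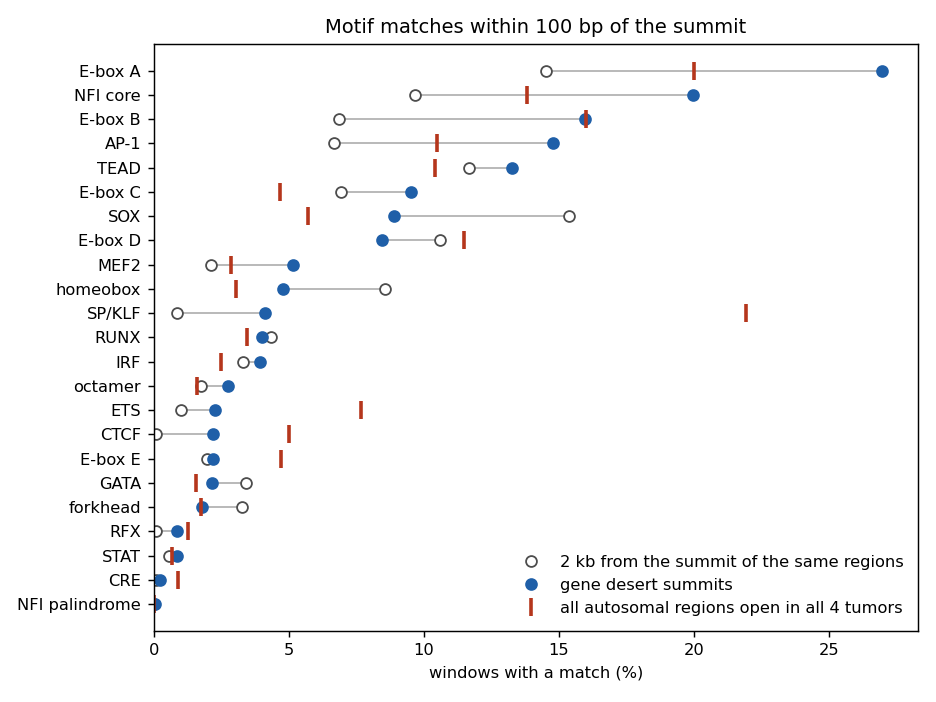
Share of 201-base windows with a motif match (x axis, %) at the summits of the gene desert regions (filled circles), 2 kb from those summits (open circles) and at all autosomal regions open in all 4 tumors (red bars). E-boxes A to E are the 5 forms named in the text, and form A has the largest share at desert summits, 27.0%.

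CTCF was matched in 68 desert regions (2.21%, 95% Wilson interval 1.75 to 2.79%, counting error only). The share was 1.97% at promoters, 7.60% at the nearer intergenic regions, 5.80% in gene bodies and 4.99% over all autosomal shared regions. In windows 2 kb away it was matched in 0.0813%. Desert regions with CTCF had median heights of 5.44, 4.96, 4.90 and 4.69 times the genome background, against 5.21, 6.28, 5.97 and 5.36 for those without, so they were lower in 3 of 4 libraries. They were also narrower, with a median width of 600.5 bp against 788 bp. Among the 100 tallest desert regions 0 had a CTCF match, 23 had CAGATG and 13 AP-1. Over all desert regions the shares were 2.21%, 27.0% and 14.8%. The share with CTCF was 2.99% in the lowest quartile of the regions by height and 1.56% in the highest.

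Matches to AP-1, the nuclear factor I core and CTCF were more frequent near the summits than far from them. Of 1491 AP-1 matches within 500 bp, 280 lay within 50 bp of the summit, and 218 in the outermost 100 bp on both sides together, which is double the length. For the nuclear factor I core these numbers were 386 and 321 of 2233, for CAGATG 543 and 501 of 3228 and for CTCF 36 and 6 of 125. Another 37 CTCF matches lay 51 to 100 bp from the summit, so CTCF was as frequent beside the summit as at it. SOX showed the opposite, with 158 matches within 50 bp and 506 in the outermost 100 bp.

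**Figure D4:**
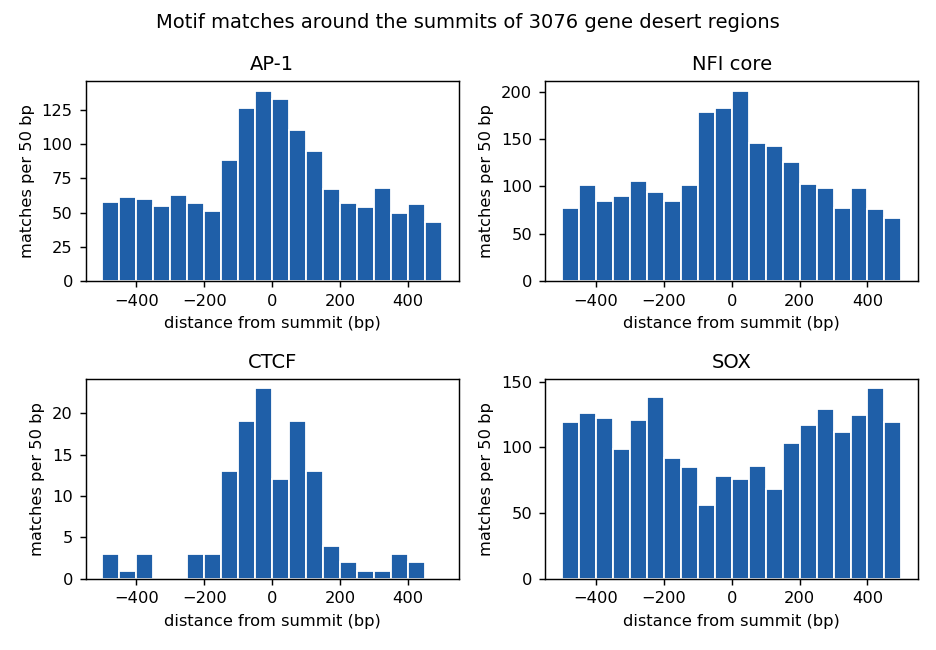
Number of motif matches per 50 bp (y axis) by distance in bp from the summit (x axis) over the 3076 gene desert regions. AP-1, the nuclear factor I core and CTCF are most frequent near the summit and SOX is sparser there than in the outer bins, with 158 matches within 50 bp.

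The study's comparison is WT against KO hosts. Peak heights were tested with limma across all 48089 regions open in all 4 tumors, and 19 of these (0.0395%) passed an adjusted p of 0.05, 18 higher in KO (0.0374%) and 1 higher in WT (0.00208%). Among the gene desert regions 5 of 3076 (0.163%) passed, all higher in KO, and all 5 lay in 1 desert between Myc and Gsdmc on chromosome 15. At an unadjusted p under 0.05 there were 180 desert regions (5.85%), against 3.08% of all regions. This excess turned without WT 1, a fit with 1 WT tumor. Both the count and the share over all regions moved with the library left out. Outside that desert the lowest adjusted p was 0.161.

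The region with the largest difference lay on chromosome 15 from 62901974 to 62903963, 906 kb from the nearest coding start, that of Gsdmc. The WT tumors had heights of 28 and 33 read ends and the KO tumors 213 and 231. The groups did not overlap, and the log2 difference was 2.75 (SE 0.24, limma adjusted p = 4.91e-26). The 101 bases at its summit are shown because this region differed most, on the plus strand, with the only match to a searched motif, IRF, in capitals.
Myc to Gsdmc, chr15:62903195-62903295: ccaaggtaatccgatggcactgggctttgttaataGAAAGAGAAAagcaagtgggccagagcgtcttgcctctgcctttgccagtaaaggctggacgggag

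The next, from 63601457 to 63602074, had WT heights of 15 and 24 and KO heights of 87 and 114, a log2 difference of 2.28 (SE 0.25, limma adjusted p = 2.12e-15). Both regions inside Pvt1, a long non-coding RNA gene next to the oncogene Myc, passed. The one from 62294964 to 62295941 had WT heights of 16 and 22 and KO heights of 68 and 113, a log2 difference of 2.11 (SE 0.26, limma adjusted p = 2.58e-12). The other, from 62328225 to 62329391, had WT heights of 24 and 44 and KO heights of 73 and 97, 1.26 on the log2 scale (SE 0.24, limma adjusted p = 0.000375). The fifth, from 63532162 to 63533035, had WT heights of 28 and 42 and KO heights of 91 and 100, a log2 difference of 1.36 (SE 0.23, limma adjusted p = 2.62e-05). In each of the 5 regions both KO tumors were above both WT tumors.

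The same stretch had a raised background in both KO libraries. From 61858247 to 63665766, over 1.81 Mb, the peaks of KO 1 and KO 2 had a median local background of 4.87 and 4.70 times the genome background. The stretch began 127 kb before the start of Myc and so covers Myc itself. In the 5 regions above the local background was between 5.35 and 9.09 times in the KO libraries and 1.00 in the WT libraries. The value 1.00 is the lowest this ratio can take, so the WT heights were in effect divided by the genome background. Heights relative to this local background were lower in KO: in the region with the largest difference the WT values were 6.34 and 4.82 and the KO values 3.90 and 3.79. In a limma fit on height over local background the 5 log2 differences turned to -0.45, -0.20, -0.44, -1.42 and -1.15 in the order given above, and 4 desert regions, all in this stretch, passed with WT higher. The sign of these differences therefore depends on whether the background is divided out. The deposited lists hold no measure of DNA copy number, and its part was not tested.

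**Figure D5:**
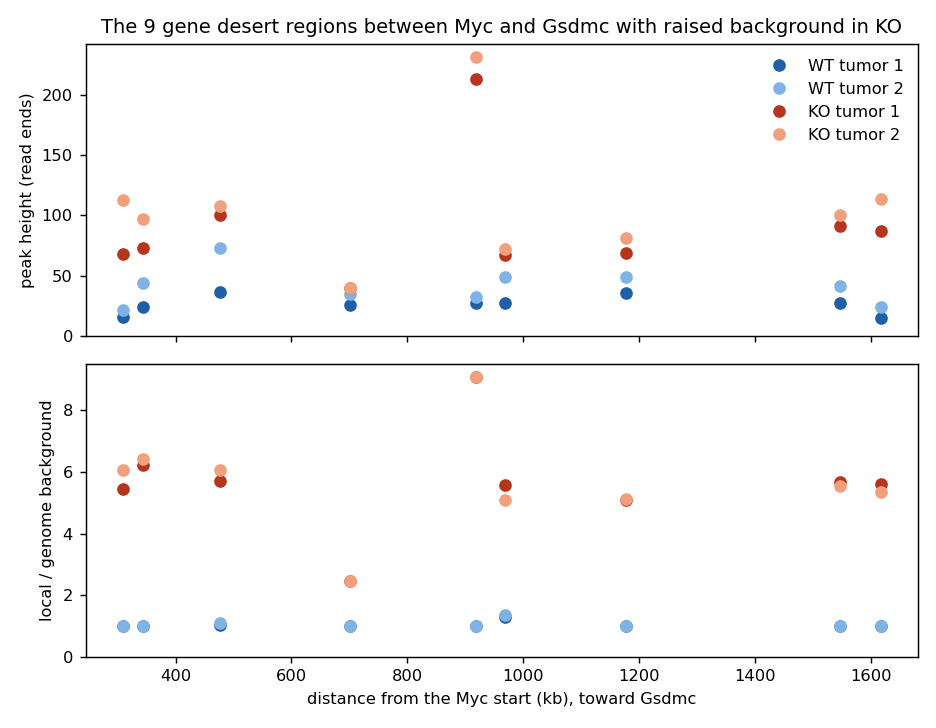
Peak height in read ends (upper panel) and local background divided by genome background (lower panel, no unit) of the 9 gene desert regions in the stretch of raised KO background, all between Myc and Gsdmc, by distance in kb from the Myc start. The KO tumors lie above the WT tumors in both panels, with local backgrounds of 2.46 to 9.09 times in KO against 1.00 to 1.36 in WT.

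There were 9 desert regions in this stretch, and the other 4 had KO heights above WT as well. They had 37 and 73 in WT against 100 and 108 in KO, 26 and 35 against 40 and 40, 28 and 49 against 67 and 72, and 36 and 49 against 69 and 81. None of these 4 passed the test. Without the stretch 0 of 3067 desert regions passed with limma, and 172 had an unadjusted p under 0.05. Without KO 2 the number of desert regions that passed fell to 3. It was 7 without WT 1, 7 without WT 2 and 6 without KO 1, of which 2, 1 and 1 lay outside the stretch, all higher in KO.

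Over the 3067 desert regions outside the stretch the median log2 difference was 0.056, and over all 48089 regions it was -0.0041. Of the 3076, 1816 lay on the KO side and 1260 on the WT side. With heights divided by the genome background instead of centred on the library median, the medians were -0.035 for the desert regions and -0.098 for all regions, and 1711 desert regions lay on the WT side. The direction for the set thus flips with the scaling. The scalings differ by a constant, so the gap between the desert median and that of all regions is the same in both. Without WT 1 the gap turned, with a median of 0.0036 for the desert regions and 0.047 for all regions.

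On heights centred on the library median and with no block, no desert region was called higher in WT, and those with the smallest p in this direction are given as values. Between the neural gene Brinp1 and Cdk5rap2 on chromosome 4, a region had WT heights of 29 and 45 read ends and KO heights of 18 and 21 (log2 difference -1.01, SE 0.26, limma adjusted p = 0.175). Between Akr1e1 and the zinc finger gene Klf6 on chromosome 13 the heights were 33 and 45 against 18 and 26, at a summit 79.1% soft-masked as repeat whose central word occurs at least 2578 times. Between Penk, the enkephalin precursor gene, and Impad1 they were 25 and 46 against 18 and 22. Between Sqor and Sema6d, a semaphorin gene, they were 37 and 43 against 27 and 20, at a sequence wholly soft-masked as repeat and with words that occur at least 16 times. Between Olfr1507 and Dad1, over the T cell receptor segment Trav9n-4, they were 23 and 37 against 20 and 17, and each word tested there occurs at least 3 times. In all 5 both WT tumors were above both KO tumors, by as little as 3 read ends beside Penk and over Trav9n-4.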

How the data were processed

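The authors deposited 1 list of peaks per library, so peaks were called per tumor. In the submitters' processing notes MACS2, HOMER and the build mm10 appear without versions, whereas the study's methods name Bowtie2, removal of mitochondrial and duplicate reads, and Genrich. The columns follow the MACS2 layout. Per the file layout the deposited columns hold a fold (the ratio of height to local background), a score, and the p-value and q-value as −log10. No source at hand states a shift of reads for the transposase. No read counts were analysed, and depth is known only from the recovered genome background.

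Peak heights (extended read ends that cover the summit) were recovered from the fold and the Poisson p-value. A whole number matched the deposited −log10 p within 0.001 for all but 2 of 331481 peaks. The genome background is the lowest background of a library. Simulated peaks tested the recovery. Coding starts came from GENCODE M21 and sequences from GRCm38.p6.

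Groups came from the sample titles. Log2 heights, centred on the library median, were compared with limma 3.58.1 (R 4.3.3) with a mean-variance trend and Benjamini-Hochberg adjustment over all 48089 regions open in all 4 tumors. The prior degrees of freedom of this fit were infinite, so the SE of a region followed the pooled trend and not its own tumors. Under quantile normalization they were 14.2, and the smallest limma adjusted p of a called desert region was 1.86e-07 instead of 4.91e-26. The files give heights rather than counts, so no count test was used. Regions were named as the 8 tallest, all called, the 5 smallest p with WT higher, the 5 farthest, 3 on either side of the threshold, the intervals with most regions and those over named non-coding genes. Members and lists were chosen with earlier results of these data known. Tables were made with Python 3.11.15, pandas 2.3.3 and scipy 1.17.1.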

Additional observations from a re-analysis of the deposited data

How the results depend on the processing

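The number of gene desert regions moved with the rule: it was 5348 beyond 100 kb, 838 beyond 500 kb and 1729 when a library had to cover 50% of the merged region. Leaving out 1 library each gave 3130 to 5118 regions. For the difference between WT and KO, leaving out 1 library each gave 3 to 7 called regions, the lowest without KO replicate 2, and leaving out the chromosome 15 stretch gave 0. With the replicate block, which treats equal tumor numbers as a pair, 4 were called. The labels do not tie the numbers, and the deviations of WT replicate 1 and KO replicate 1 correlated at -0.341. A crossed replicate block, added after seeing the data, called 14 desert regions, of 101 over all regions. Of the 14, 6 lay outside the stretch and 2, both among the 5 given as values, were higher in WT. Dividing by the local background called 4 desert regions, of 6 over all regions, all higher in WT. The 5 called regions then changed sign, to log2 differences of -0.45, -0.20, -0.44, -1.42 and -1.15, and of these only that at -1.42 passed. The CTCF share was 1.04% within 50 bp and 3.61% within 250 bp of the summit. Of the alternative values of the main results, 24 stayed within the limits set for a count (1.5 times) or for the CTCF share (its interval) or kept the direction of the share of peaks, 9 moved past these limits and 1 reversed. Depth limits a region to those above 13 to 16 read ends, and a lost peak cannot enter the test.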

Other observations

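Motif shares also differed among desert regions by the number of libraries with a peak. CAGATG was matched in 21.6% of the 3723 desert regions with a peak in 1 library, 25.4% with 2, 30.1% with 3 and 27.0% with 4. CATATG was matched in 8.17%, 10.2%, 12.5% and 9.53%, SOX in 11.8%, 10.96%, 9.08% and 8.91%, and CTCF in 1.18%, 1.86%, 0.871% and 2.21%. AP-1 lay between 13.8% and 16.003%. Regions in 1 library come mostly from WT 2, with 1924 of the 3723, so library and breadth cannot be told apart. In 41 desert regions open in all 4 tumors the local background was at least 2 times the genome background in every library, and in 10 of these all 3 words at the summit were repeated.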
